A study of Mus musculus with 27 samples.

Results

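ATF4 is the transcription factor of the integrated stress response, and the genes described here are ATF4 itself, partners and targets of it, and the enzymes and transporters that supply cells with amino acids and one-carbon units. The group holds 36 genes of the 23420 in the deposited tables, a list of symbols drawn up around the pathway with earlier results of these data known. By role it comprises 8 transcription factors, 5 feedback and stress effectors, 7 enzymes of serine synthesis and mitochondrial one-carbon metabolism, 8 other enzymes of amino acid metabolism and 8 amino acid transporters. All 36 symbols were present in the tables, 31 of them at a mean of 50 or more normalized counts.

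In the integrated stress response, kinases that sense amino acid shortage, unfolded protein, viral RNA or lack of heme phosphorylate the translation factor eIF2. General translation then falls while translation of Atf4 mRNA increases, so that much of the control of ATF4 lies in its protein and not in its mRNA. ATF4 pairs with C/EBP family proteins on composite sites in the promoters of genes for amino acid synthesis and import, tRNA charging and feedback on the pathway. In melanoma cells the same genes are known to respond to nutrient supply and to stress of the endoplasmic reticulum.

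The mRNA of B16, a mouse melanoma cell line, was sequenced from its 3′ ends in the parental line and in clone 2 and clone 9, derivatives whose own Tbx2 gene was given a triple HA tag. Each line was left untransfected or harvested 48 h after transfection with control siRNA or Tbx2 siRNA, with 3 samples per condition and 27 in all. Comparisons were made between the 18 samples that received an siRNA, each line on its own, and the 9 untransfected samples were not analysed here. Each tagged line is 1 clone, and a difference between lines therefore cannot be told apart from a difference between single clones.

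Fold changes, standard errors and adjusted p-values are those of the authors' deposited tables, from their DESeq2 fit. A gene "rose" or "fell" where its adjusted p was under 0.05, and a value that missed this threshold is given as an estimate that does not show equality. No value per library was at hand, so library depth is unknown and the spread over samples shows only in the standard errors. The mean normalized count of a gene was the same in every table and was therefore not taken within 1 line. Standard errors of a gene were also nearly equal in every table. Which samples entered the fit is not stated, and the spread may have been estimated over all lines together. The standard errors and p-values therefore cannot be read as the spread within 1 line. Tbx2 itself, a T-box repressor at chr11:85832551-85841948 of GRCm38, fell in all lines. On the log2 scale parental cells gave −2.96 ± 0.22 (standard error), clone 2 gave −2.26 ± 0.21 and clone 9 gave −2.20 ± 0.23 (adjusted p = 1.42e-38, 2.15e-23 and 2.8e-19). Of 10 melanocyte markers, 9 had a mean count between 293.6 and 48044.6 and Ednrb stood at 1.9, while of 12 markers of blood, endothelial, epithelial and stromal cells 10 were under 3, with Col1a1 at 24.9 and the macrophage marker Cd68 at 7.1. Cd68 rose in clone 9 (2.13, standard error 0.83, adjusted p = 0.0399) and missed in the other lines, and its part in the results was not tested. The pigment genes Dct, Tyrp1 and Gpnmb fell in all lines, with −0.77, −0.75 and −0.38 in parental cells, and Pax3, a melanocyte factor, rose, with 0.49 there (adjusted p = 1.41e-06, 2.74e-06, 0.000896 and 1.58e-06). Of the other markers, Mitf, Sox10 and Mlana passed in no line. Tyr and Pmel fell in clone 2 only, with −1.78 and −0.40 (adjusted p = 0.00248 and 0.0426), and the estimate of Tyr in clone 9 was 0.42 (adjusted p = 0.588). In RNA from whole cultures, fewer cells with a transcript and less of it per cell cannot be told apart.

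The promoters of several members carry the core of the composite site, TGATGNAA on either strand. RefSeq gave a promoter of 250 bases before to 50 after the start for 31 members, and 12 of them (38.7%) held the core, against 4.51% of 27025 genes with such a promoter and 2.7% of those that also had an adjusted p. The stricter form TGATGCAA, which is a subset of the core, was in 9 members (29%) and in 1.03% of all genes. The list was drawn up around ATF4 and its targets, so these higher shares are no independent result. Windows of 30 bases around the core are shown for members whose values are followed through the results, on the strand of the gene, with the core or its reverse complement in capitals. The Slc7a11 promoter holds the core at a pair of neighbouring positions, in opposite directions.
Atf3, chr1:191183425-191183454 (minus strand): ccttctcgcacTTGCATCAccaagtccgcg
Nupr1, chr7:126625562-126625591 (minus strand): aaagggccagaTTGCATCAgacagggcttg
Jdp2, chr12:85599372-85599401 (plus strand): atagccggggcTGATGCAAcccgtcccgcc
Chac1, chr2:119351038-119351067 (plus strand): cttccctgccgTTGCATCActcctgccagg
Trib3, chr2:152344028-152344057 (minus strand): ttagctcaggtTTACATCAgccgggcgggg
Asns, chr6:7693214-7693243 (minus strand): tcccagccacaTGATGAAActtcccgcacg
Got1, chr19:43524689-43524718 (minus strand): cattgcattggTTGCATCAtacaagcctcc
Slc1a4, chr11:20332699-20332728 (minus strand): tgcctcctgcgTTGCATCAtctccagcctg
Slc7a11 outer, chr3:50443661-50443690 (minus strand): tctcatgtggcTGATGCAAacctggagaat
Slc7a11 inner, chr3:50443642-50443671 (minus strand): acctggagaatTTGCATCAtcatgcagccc
Coordinates are of GRCm38.p6. The core lay 110 to 103 bases before the start in Atf3 and in Nupr1, 102 to 95 bases before it in Got1, and across the start itself in Slc1a4. A match to these letters is a description of the sequence and not a bound site, and no match in this window says nothing about ATF4 elsewhere.

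After Tbx2 siRNA, 13 of 32 members with an adjusted p rose in parental cells (40.6%), where 18.5% of all genes with an adjusted p rose. In clone 2, 13 of 34 rose (38.2%), against 15.0% of all genes. Clone 9 gave 4 of 34 (11.8%), near the 13.4% of all genes. At an adjusted p under 0.01 the shares that rose were 15.6% of members and 13.1% of all genes in parental cells, 14.7% and 9.98% in clone 2, and 5.88% and 8.3% in clone 9. At the threshold of 0.05, 2 of the same members fell in parental cells (6.25%, where 18.0% of all genes fell), 2 in clone 2 (5.88%, against 14.2%) and 1 in clone 9 (2.94%, against 14.7%). As a median over the members, the log2 fold change in parental cells was 0.75, that in clone 2 0.81 and that in clone 9 0.56, where the medians over all genes with an adjusted p were 0.02, 0.03 and 0.03.

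Counted over the lines, 17 members rose in at least 1 of them, 3 fell in at least 1, and 16 passed the test in none. Among the 32 members with an adjusted p in every line these were 53.1% that rose, 9.38% that fell and 37.5% that passed in none, where all genes of that kind gave 23.8%, 22.4% and 53.8%. No member rose in 1 line and fell in another. Gpt2, Got1 and Slc1a4 rose in all 3 lines, and Aldh18a1 alone fell in all 3. Of the 32 members, 9.38% thus rose in all 3 lines, near the 8.78% of all genes with an adjusted p in every line. Falls in all 3 lines were 3.12% of members and 10.1% of all genes. Parental cells and clone 2 shared 9 of the members that rose, which was 9 of 13 in each (69.2%), where of all genes 66.6% of those that rose in parental cells also rose in clone 2 and 79.8% the other way round. Of the 31 members with a mean count of 50 or more, 24 had an estimate above 0 in every line, 4 below 0 in every line, and 3 changed sign between lines.

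**Figure D1:**
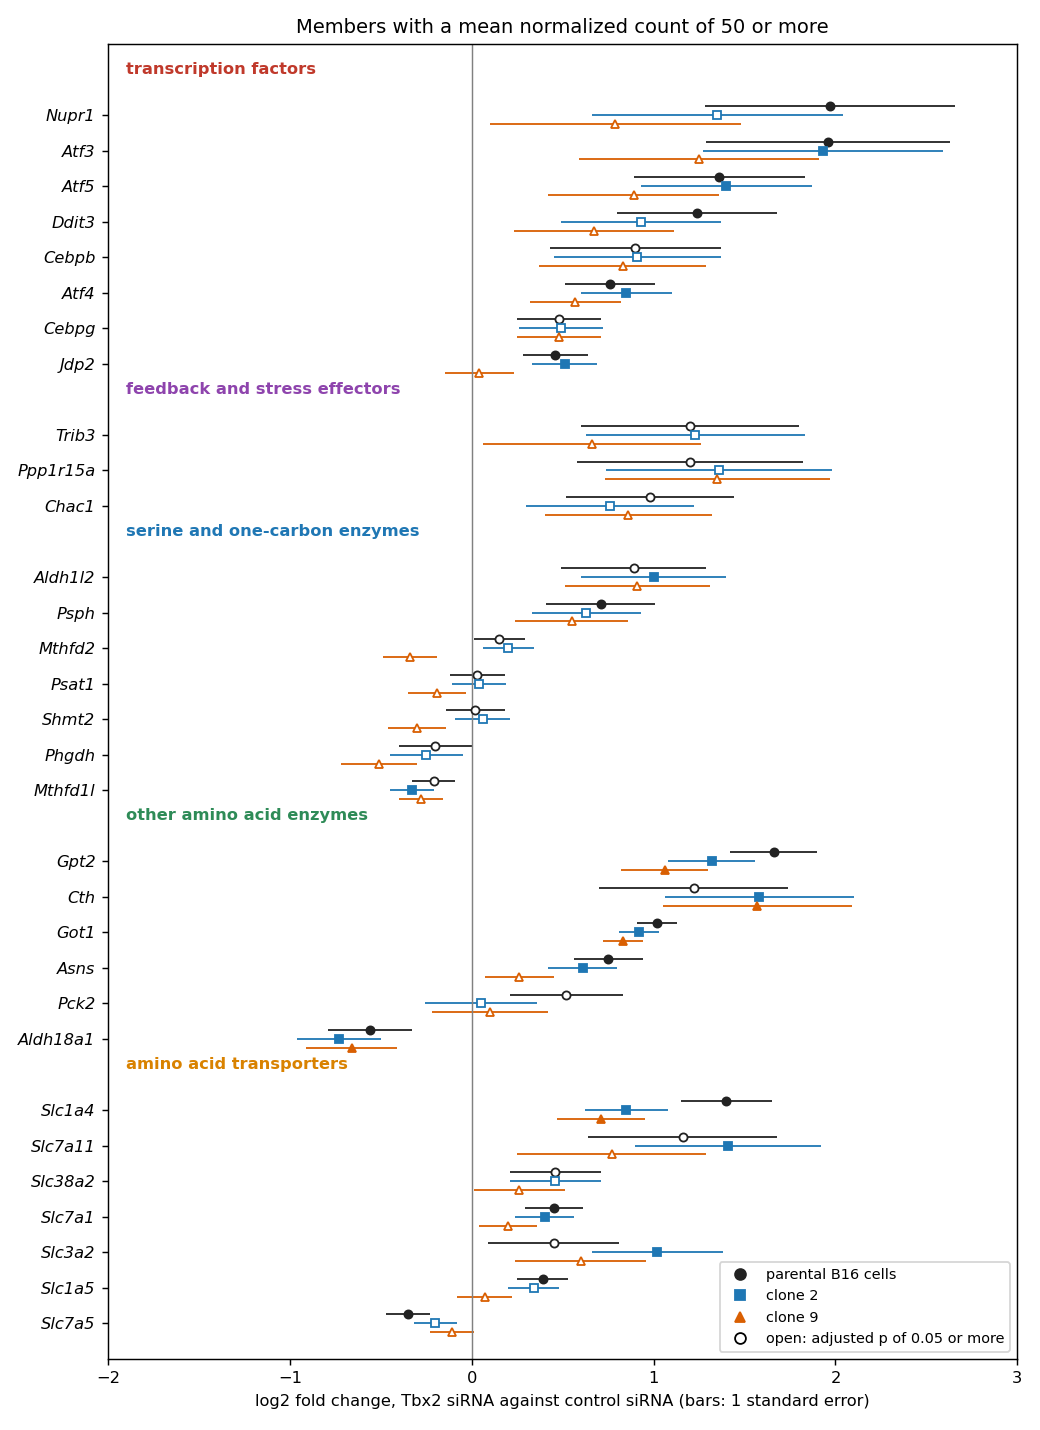
Log2 fold change of Tbx2 siRNA against control siRNA (horizontal axis) for the 31 members at a mean of 50 or more normalized counts, by role, in parental B16 cells (circles), clone 2 (squares) and clone 9 (triangles). Bars are 1 standard error and filled symbols have an adjusted p under 0.05. The factors lie to the right of 0 in all lines, mostly with wide bars, though Jdp2 in clone 9 is at 0.04. Of the serine and one-carbon enzymes, Aldh1l2 and Psph lie above 0 in all lines. Phgdh and Mthfd1l lie below 0 in all lines, and the other enzymes of this role lie on both sides.

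Among the transcription factors, 6 of 8 rose in parental cells, 4 of 8 in clone 2 and 0 of 8 in clone 9, where 2 had an unadjusted p under 0.05 in the DESeq2 tables. All 8 had estimates above 0 in every line. Atf4 mRNA rose by 0.76 in parental cells (adjusted p = 0.00875), which is 1.69-fold, and by 0.85 in clone 2 (adjusted p = 0.0037), both with a standard error of 0.25. Its estimate in clone 9 was 0.57 (standard error 0.25, adjusted p = 0.0744). Thus the transcript of the central factor was higher by less than 2-fold where it passed the test, and translation, where ATF4 is mainly controlled, was not measured.

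Atf3, a stress-induced factor of the same family that is itself a target of ATF4, had much larger estimates. It rose by 1.96 in parental cells (3.90-fold, standard error 0.67, adjusted p = 0.0117) and reached 1.93 in clone 2 (3.81-fold, standard error 0.66, adjusted p = 0.0148), and it stood at 1.25 in clone 9 (adjusted p = 0.15). Atf5, which like Atf4 is regulated through upstream reading frames, had 1.36, 1.40 and 0.89 in parental cells, clone 2 and clone 9 (standard error 0.47 in each; adjusted p = 0.0136, 0.0139 and 0.153). Both therefore passed in parental cells and in clone 2 and missed in clone 9, where the estimates were still above 0.

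Ddit3, which encodes CHOP, the factor tied to cell death under lasting stress, rose in parental cells only, by 1.24 (standard error 0.44, adjusted p = 0.0164). Its estimates in the clones were 0.93 (adjusted p = 0.0998) and 0.67 (adjusted p = 0.271). The GENCODE annotation read here for gene positions has a pair of overlapping models under this name. The annotation used for counting is not named in the text at hand, and whether reads were split was not tested. Nupr1, a small stress-induced chromatin protein, rose by 1.97 in parental cells (3.90-fold, standard error 0.69, adjusted p = 0.0157) and had estimates of 1.35 in clone 2 (adjusted p = 0.132) and 0.79 in clone 9 (adjusted p = 0.435). Jdp2, a repressor of the AP-1 and ATF family, rose by 0.46 in parental cells (adjusted p = 0.0357) and 0.51 in clone 2 (adjusted p = 0.0242), with a standard error of 0.18 in each. In clone 9 its estimate was 0.04 (standard error 0.19, adjusted p = 0.921), the nearest to 0 among the factors.

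The C/EBP partners of ATF4 passed in no line. Cebpb had estimates of 0.90, 0.91 and 0.83 in parental cells, clone 2 and clone 9, with adjusted p-values of 0.12, 0.131 and 0.181. For Cebpg the estimates were 0.48, 0.49 and 0.48, with adjusted p-values of 0.083, 0.0868 and 0.11. Both were thus nearly level over the lines, and neither is shown to have changed.

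The feedback and stress effectors had high estimates, and none of them passed in the DESeq2 tables, where an unadjusted p under 0.05 was found for 2 in parental cells, 2 in clone 2 and for 1 in clone 9. Trib3, a pseudokinase that restrains the pathway, stood at 1.20, 1.23 and 0.66 in parental cells, clone 2 and clone 9, with a standard error of 0.60 in each and adjusted p-values of 0.105, 0.11 and 0.453. Ppp1r15a encodes GADD34, which directs phosphatase to eIF2 and so ends the response, and its estimates were 1.20, 1.36 and 1.35, with a standard error of 0.62 and adjusted p-values of 0.119, 0.0838 and 0.0887. Chac1, an enzyme that breaks down glutathione, stood at 0.98, 0.76 and 0.86 with adjusted p-values of 0.0803, 0.213 and 0.164. All 9 of these estimates lay above 0 and corresponded to between 1.58-fold and 2.56-fold. The remaining effectors, the secreted glycoprotein Stc2 and the lipoprotein receptor Vldlr, had mean counts of 0.3 and 1.3 and no adjusted p.

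A feature that ran through the group was the size of the standard errors. Each member was set beside the genes whose mean count lay within 2-fold of its own. In parental cells the standard error was above the median of those genes in 28 of 31 members and above their 90th percentile in 18, and the median percentile was 96.2. Clone 2 gave 27, 18 and 96.2, and clone 9 gave 27, 17 and 96.2. The standard errors of a gene were nearly equal in the 3 tables, so these are not independent counts.

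Factors and effectors stood farthest out. Their median percentiles in parental cells were 99.1 and 99.8, against 77.9 for serine and one-carbon enzymes, 90.7 for other enzymes and 84.0 for transporters. Trib3 had a standard error of 0.60 where genes of its mean had a median of 0.15, Atf3 0.67 against 0.20, Nupr1 0.69 against 0.20 and Atf4 0.25 against 0.12. Got1 was the opposite case, with 0.11 against 0.12. An estimate of 1.20 therefore missed the threshold in Trib3 while one of 0.46 passed it in Jdp2. Which libraries the spread came from was not tested, since no value per library was at hand.

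**Figure D2:**
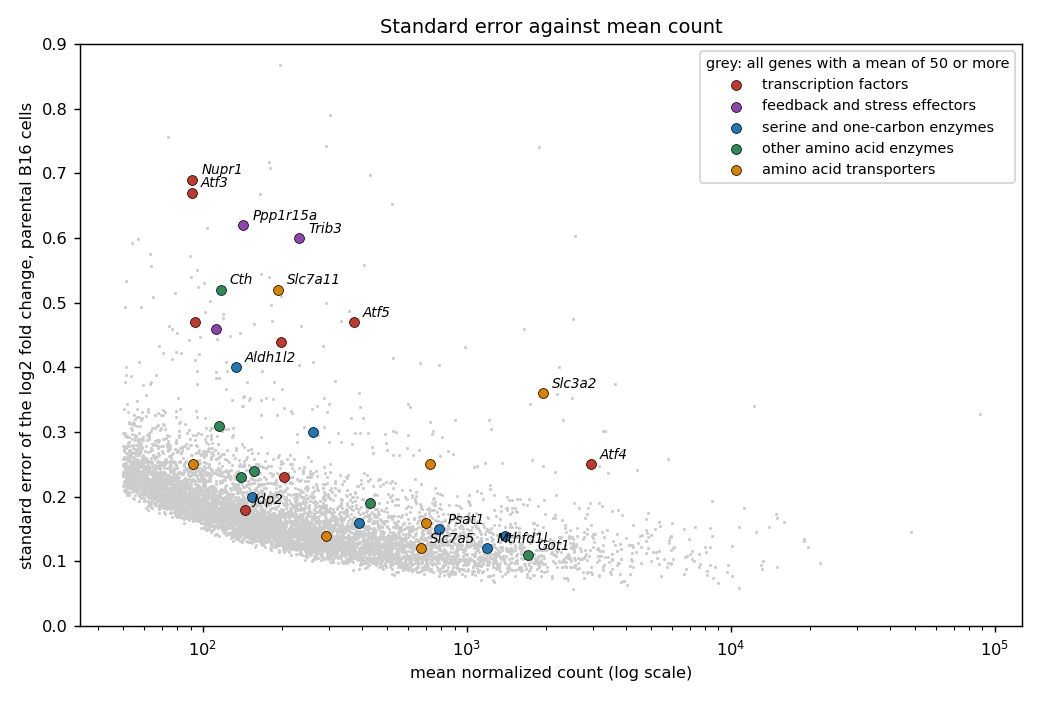
Standard error of the log2 fold change in parental B16 cells (vertical axis) against the mean normalized count (horizontal log axis) for all genes with a mean of 50 or more (grey) and the 31 members, coloured by role. Atf3, Nupr1, Trib3 and Ppp1r15a lie between 0.60 and 0.69, far above the grey band, while Got1 at 0.11 lies within it.

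Enzymes of serine synthesis and mitochondrial one-carbon metabolism showed no common direction. Of the 7, 1 rose in parental cells, 1 rose and 1 fell in clone 2, and none passed in clone 9, where at an unadjusted p under 0.05 in the DESeq2 fit 1 lay above 0 and 3 below. The rises were 14.3%, 14.3% and 0.0%, against 18.5%, 15.0% and 13.4% of all genes, and the fall in clone 2 was 14.3%, against 14.2%. The median log2 fold change of the 7 enzymes was 0.03, 0.06 and −0.28. Psph, the phosphatase of the last step of serine synthesis, rose by 0.71 in parental cells (standard error 0.30, adjusted p = 0.0479), with estimates of 0.63 and 0.55 in clones 2 and 9 (adjusted p = 0.0987 and 0.177). The enzymes of the preceding steps had estimates near or below 0. Phgdh, which opens the pathway, stood at −0.20, −0.25 and −0.51 in parental cells, clone 2 and clone 9 (adjusted p = 0.468, 0.374 and 0.0551), and Psat1, the transaminase that follows it, at 0.03, 0.04 and −0.19 (adjusted p = 0.893, 0.874 and 0.391).

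On the mitochondrial side, Shmt2, which splits serine to glycine and a one-carbon unit, stood at 0.02, 0.06 and −0.30 (adjusted p = 0.93, 0.809 and 0.147). Mthfd2, which oxidizes that unit, stood at 0.15, 0.20 and −0.34 (adjusted p = 0.456, 0.314 and 0.0693). Psat1, Shmt2 and Mthfd2 were the members that changed sign, each with its negative estimate in clone 9. Mthfd1l, which releases the unit as formate, fell by 0.33 in clone 2 (standard error 0.12, adjusted p = 0.0236) and stood at −0.21 in parental cells (adjusted p = 0.149) and −0.28 in clone 9 (adjusted p = 0.0683). Aldh1l2, which instead burns the unit to carbon dioxide, went the other way. It rose by 1.0 in clone 2 (2.0-fold, standard error 0.40, adjusted p = 0.0431), and its estimates of 0.89 in parental cells and 0.91 in clone 9 missed the threshold (adjusted p = 0.0665 and 0.0702).

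Among the other enzymes, the transaminases that make alanine and aspartate had the smallest adjusted p-values of the whole group in each line. Got1, the cytosolic aspartate aminotransferase, rose by 1.02 in parental cells (2.03-fold, adjusted p = 2.79e-18), 0.92 in clone 2 (1.90-fold, adjusted p = 8.72e-15) and 0.83 in clone 9 (1.78-fold, adjusted p = 4.47e-12), each with a standard error of 0.11. Gpt2, the mitochondrial alanine aminotransferase, rose by 1.66 (3.17-fold, standard error 0.24, adjusted p = 7.69e-11), 1.32 (2.49-fold, adjusted p = 7.88e-07) and 1.06 (2.09-fold, adjusted p = 0.00014) in the same order of lines. The estimates of both were highest in parental cells and lowest in clone 9. Asns, which makes asparagine and is the classical target of ATF4, rose by 0.75 in parental cells (standard error 0.19, adjusted p = 0.000439) and 0.61 in clone 2 (adjusted p = 0.00622). It did not pass in clone 9, at 0.26 (adjusted p = 0.34).

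Cth, the enzyme that releases cysteine from cystathionine, had its higher estimates in the clones. It rose by 1.58 in clone 2 (2.99-fold, standard error 0.52, adjusted p = 0.0108) and 1.57 in clone 9 (2.97-fold, adjusted p = 0.0129) and just missed in parental cells, at 1.22 (adjusted p = 0.0515). With genes under a mean count of 50 left out before adjustment, or with estimates centred on the median gene, it passed there too (adjusted p = 0.0427 and 0.0488). Pck2, the mitochondrial enzyme that turns oxaloacetate to phosphoenolpyruvate, stood at 0.52, 0.05 and 0.10 and passed in no line (adjusted p = 0.184, 0.92 and 0.853). Aldh18a1, which turns glutamate into the precursor of proline and ornithine, was the only member that fell in all lines, with log2 fold changes of −0.56 ± 0.23 (standard error), −0.73 ± 0.23 and −0.66 ± 0.25 in parental cells, clone 2 and clone 9 (adjusted p = 0.042, 0.00801 and 0.0302). Adjusted over every gene with a p-value, its falls in parental cells and clone 9 no longer passed (adjusted p = 0.0748 and 0.0526).

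Of 8 transporters, 3 rose and 1 fell in parental cells, where 18.5% of all genes rose and 18.0% fell. The 1 fall there was thus no more than the share of all genes. In clone 2, 4 rose and 0 fell, against 15.0% and 14.2% of all genes. Clone 9 had 1 that rose, near the 13.4% of all genes, and 0 that fell, against 14.7%. Slc1a4, a carrier of alanine, serine and cysteine, rose in every line, by 1.40 in parental cells (2.64-fold, adjusted p = 1.71e-07), 0.85 in clone 2 (1.80-fold, adjusted p = 0.00187) and 0.71 in clone 9 (1.64-fold, adjusted p = 0.0153), with standard errors of 0.25, 0.23 and 0.24. Its close relative Slc1a5, a carrier of glutamine, rose in parental cells only, by 0.39 (standard error 0.14, adjusted p = 0.0181), and stood at 0.34 and 0.07 in clones 2 and 9 (adjusted p = 0.0584 and 0.788). The carrier of arginine and lysine, Slc7a1, rose by 0.45 in parental cells (standard error 0.16, adjusted p = 0.0153) and 0.40 in clone 2 (adjusted p = 0.0432), with 0.20 in clone 9 (adjusted p = 0.391). These 3 carriers had their lowest estimate in clone 9, as Atf3, Atf4 and Atf5 did.

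Slc3a2 is the heavy chain with which the light chains Slc7a5 and Slc7a11 reach the membrane, and the light chains had estimates of opposite sign. Slc7a11, which imports cystine in exchange for glutamate, rose by 1.41 in clone 2 (2.66-fold, standard error 0.51, adjusted p = 0.0239) and stood at 1.16 in parental cells (adjusted p = 0.0632) and 0.77 in clone 9 (adjusted p = 0.286). Slc3a2 rose in clone 2 as well, by 1.02 (2.03-fold, standard error 0.36, adjusted p = 0.0193), with 0.45 in parental cells (adjusted p = 0.337) and 0.60 in clone 9 (adjusted p = 0.219). Slc7a5, the light chain for large neutral amino acids such as leucine, fell instead, by 0.35 in parental cells (standard error 0.12, adjusted p = 0.0145), with −0.20 and −0.11 in clones 2 and 9 (adjusted p = 0.21 and 0.543). Slc38a2, a sodium-coupled carrier of neutral amino acids that is induced by starvation in many cells, stood at 0.46, 0.46 and 0.26 and passed in no line (adjusted p = 0.146, 0.17 and 0.498).

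The 5 members under a mean count of 50 were all far under it and allow no statement on direction. Besides Stc2 and Vldlr these were Pycr1, which completes proline synthesis, Cbs, the enzyme before Cth, and Slc7a3, a carrier of cationic amino acids. Their mean counts were 2.4, 2.5 and 3.3. Slc7a3 had estimates of 1.95 in parental cells (adjusted p = 0.087), 2.25 in clone 2 (adjusted p = 0.0522) and 0.50 in clone 9 (adjusted p = 0.717), with standard errors of 0.93, 0.93 and 0.85. Pycr1 and Cbs had an adjusted p in the clones only, between 0.166 and 0.651.

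Whether the lines differed was tested directly, by the difference of their log2 fold changes over all genes. No member passed in any of the 3 pairs. Of all genes, 0.0% passed between clone 2 and parental cells, 0.0% between clone 9 and parental cells and 0.00832% between clone 9 and clone 2. At an unadjusted p under 0.05 there were 0 of 32, 2 of 32 and 1 of 34 members. Of all genes these were 411 of 11621, 437 of 11621 and 793 of 12023. Mthfd2 and Slc1a4 were the members between clone 9 and parental cells, and Mthfd2 was the one between the clones. The estimate of Mthfd2 was lower in clone 9 than in clone 2 by 0.53 (95% interval of the difference from −0.94 to −0.13, adjusted p = 0.523), and that of Slc1a4 was lower in clone 9 than in parental cells by 0.69 (95% interval from −1.36 to −0.01, adjusted p = 0.999).

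The small number of rises in clone 9 is thus not shown to be a difference from the other lines. Estimates were lower in clone 9 than in parental cells for 26 of 31 members with a mean count of 50 or more, with a median difference of −0.25, and lower than in clone 2 for 26 of 31, with a median of −0.24. Between clone 2 and parental cells 16 of 31 were lower and the median difference was at 0.0. As background, genes of that mean count that rose in parental cells had a median difference of −0.16 in clone 9 and −0.12 in clone 2 from parental cells, with 79.0% and 74.8% lower. Between clone 9 and clone 2 the same genes had a median difference of −0.05, with 57.9% lower. For the comparisons with parental cells, their choice by the value there already favours that direction. The intervals stayed wide for the factors, from −0.89 to 0.50 for Atf4 and from −3.09 to 0.74 for Nupr1, clone 9 minus parental cells. For Got1 the interval was narrow, from −0.49 to 0.12.

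**Figure D3:**
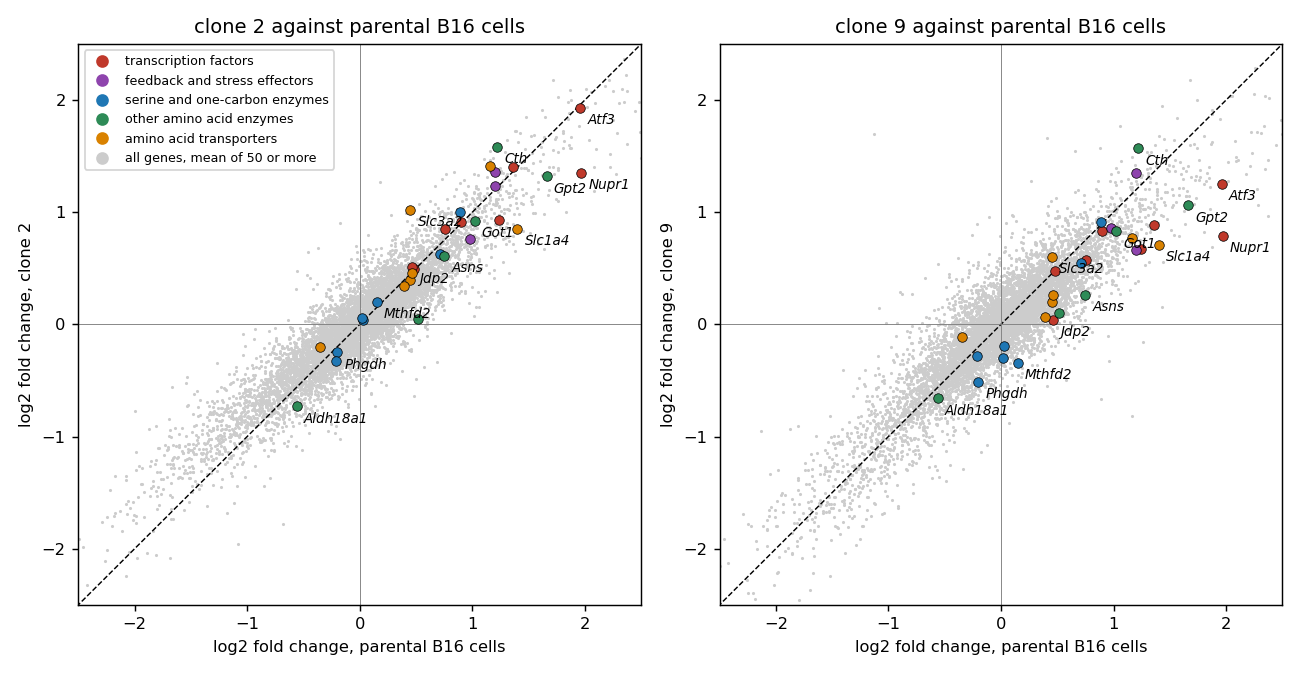
Log2 fold change in clone 2 (left) and clone 9 (right, vertical axes) against that in parental B16 cells (horizontal axes) for all genes with a mean count of 50 or more (grey) and the 31 members, coloured by role, with the line of equality dashed and 17 grey genes outside the axes in each panel. On the right 26 of the 31 members lie under the dashed line, on the left 16.

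The members with the composite core in their promoter were set beside those without it. In parental cells 6 of 10 with the core and an adjusted p rose (median log2 fold change 1.09), as did 6 of 17 without it (median 0.46). In clone 2 these were 6 of 11 and 5 of 18 (medians 0.92 and 0.56), and in clone 9, 2 of 11 and 1 of 18 (medians 0.77 and 0.37). Falls were 0 with the core in every line, and 1, 2 and 1 without it. Over all genes with a promoter and an adjusted p in parental cells, 22.1% of the 235 with the core rose and 18.3% of the 8478 without it, while 13.2% and 18.5% fell. In clone 2 the shares that rose with and without it were 21.8% and 15.1%, and in clone 9 18.4% and 13.3%. Atf3, Nupr1, Jdp2, Asns, Got1 and Slc1a4, all printed with their windows, were the members with the core that rose in parental cells. Trib3, Chac1, Slc7a11 and Pck2 had the core and did not pass there, and Gpt2 rose in every line without these letters in its window.

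Motifs bound by other factors were sparser. The E-box CACGTG was in 3 members, Nupr1, Aldh18a1 and Cbs (9.68%), against 8.09% of all genes and 12.1% of genes with a promoter and an adjusted p, and GGTGTGA, 1 arm of the T-element that T-box factors recognize, in 4, Atf4, Atf5, Jdp2 and Slc7a11 (12.9%), against 4.60% and 3.81%. In Atf4 it lay 201 to 195 bases before the start, and in Slc7a11 20 to 14 bases before it. The window of Aldh18a1, the gene that fell in all lines, is printed with its E-box in capitals beside the T-element letters of Atf4, both on the strand of the gene.
Aldh18a1, chr19:40588505-40588534 (minus strand): ggagggggccgcCACGTGgagcgtgggcgc
Atf4, chr15:80254972-80255001 (plus strand): aagagatggcaGGTGTGAcagtctggcgcc
All 4 members with the T-element letters rose in clone 2, 3 of them rose in parental cells and none passed in clone 9. Members without these letters, with a promoter and an adjusted p, rose in 9 of 23 cases in parental cells. In clone 2 these were 7 of 25, and in clone 9 3 of 25. Genes with these letters at large rose in 19.6% of cases in parental cells, where 18.3% of genes without them did. The corresponding shares were 16.4% and 15.2% in clone 2, and 14.7% and 13.4% in clone 9. Of the members with the E-box, Nupr1 rose and Aldh18a1 fell in parental cells, and Cbs had no adjusted p there. Genes with the E-box at large rose in 18.8% of cases in parental cells and those without it in 18.3%, while 19.4% and 18.2% fell. In clone 2, 16.5% and 15.1% rose and 14.5% and 14.6% fell. Clone 9 gave 14.3% and 13.4% that rose, and 16.2% and 14.8% that fell.

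An siRNA can also lower transcripts that match its seed, bases 2 to 8 of the guide. The guide of Tbx2 siRNA number 06, the number in the name of the sheet that holds the parental comparison in the study's supplement, is shown with the seed in capitals, followed by the 30 bases of 3′ UTR that hold the complementary letters AAATTTC in the pair of members that have them.
Guide of siRNA 06: aGAAAUUUgcaucaaaucc
Slc7a11 (chromosome 3, minus strand): gtagtttacctAAATTTCcccacaaacagt
Cbs (chromosome 17, minus strand): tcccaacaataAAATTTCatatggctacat
These were 2 of 36 members (5.56%), against 14.0% of the 10516 genes with a 3′ UTR in the annotation and an adjusted p in parental cells. Of those tested in parental cells, 27.6% of genes with the site fell and 17.1% of those without it, while 13.5% and 19.2% rose. The longest 3′ UTR of each gene was searched. Genes with and without the site were not matched for its length or base content, and other letters were not compared. The 13 members that rose and the 2 that fell in parental cells all lacked the site, but so did 31 of the 32 members tested there. Cbs had no adjusted p in parental cells, and Slc7a11, which rose in clone 2, holds the site. The part of the seed in the calls of members was not tested. The deposited labels name the Tbx2 siRNA siTbx2a in every line, and for the clones no siRNA number was found in the labels or in the text at hand. Among genes tested in the clones, 24.6% of those with this site and 13.1% without it fell in clone 2, and 25.2% and 13.6% in clone 9.

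Genes around the group were read from lists drawn up by function. The shares over all genes were 18.5% that rose and 18.0% that fell in parental cells, 15.0% and 14.2% in clone 2, and 13.4% and 14.7% in clone 9. Of 15 genes for the eIF2 kinases and the eIF2 machinery, none rose and 5 fell in parental cells (0 and 6 at an unadjusted p under 0.05 in the DESeq2 table), where clone 2 gave 1 and 2 (6.67% and 13.3%, the latter near all genes) and clone 9 gave 1 and 4 (6.67% and 26.7%). Eif2s1, the subunit of eIF2 that the kinases phosphorylate, fell in all lines, with −0.89, −0.63 and −0.92 in parental cells, clone 2 and clone 9 (adjusted p = 1.37e-09, 3.98e-05 and 2.49e-09). Among 15 further ATF4 targets with an adjusted p, 6 rose and 1 fell in parental cells (40.0% and 6.67%), 6 and 1 in clone 2 (the same shares), and 3 and 0 in clone 9 (20.0% and 0%, with 5 and 0 at an unadjusted p under 0.05 in the DESeq2 table). Ddit4, an inhibitor of mTORC1 signalling, rose by 2.64, 2.5 and 2.06 in parental cells, clone 2 and clone 9 (adjusted p = 8.55e-12, 1.57e-10 and 1.95e-07), and Klhl24, an adaptor of a ubiquitin ligase, by 1.36, 1.18 and 1.04 (adjusted p = 4.72e-09, 9e-07 and 2.18e-05).

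Of the 20 cytosolic aminoacyl-tRNA synthetases, 9 rose and 2 fell in parental cells (45.0% and 10%), 7 and 2 in clone 2 (35.0% and 10%), and 2 and 1 in clone 9 (10% and 5.0%). Nars, which charges asparagine, rose by 0.62, 0.84 and 0.46 in parental cells, clone 2 and clone 9 (adjusted p = 0.000197, 3.42e-07 and 0.0111), and Cars, which charges cysteine, by 0.56, 0.69 and 0.50 (adjusted p = 0.00766, 0.000997 and 0.0316). Dars, which charges aspartate, fell, with −1.09, −0.99 and −1.18 (adjusted p = 6.13e-15, 1.62e-12 and 2.11e-13). Of 15 further amino acid transporters with an adjusted p, parental cells had 4 that rose and 0 that fell (4 and 0 at an unadjusted p under 0.05), clone 2 had 1 and 0 (3 and 1), clone 9 had 2 and 3 (2 and 3), and none was called the same way in all lines.

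Of 20 further serine and folate genes with an adjusted p in parental cells, 3 rose and 7 fell (15.0% and 35.0%), and of 21 in each clone, clone 2 gave 2 and 4 (9.52% and 19.0%) and clone 9 gave 3 and 6 (14.3% and 28.6%). Mthfd1, the cytosolic counterpart of Mthfd2 and Mthfd1l, fell in all lines, with −0.90, −0.64 and −1.01 (adjusted p = 5.66e-11, 7.12e-06 and 1.05e-11), as did methionine synthase, Mtr, with −1.65, −1.28 and −1.0 (adjusted p = 1.37e-10, 2.24e-06 and 0.000884). Aldh1l1, the cytosolic counterpart of Aldh1l2, rose by 1.77, 1.45 and 2.0 at a mean count of 23.9 (adjusted p = 3.15e-05, 0.00204 and 0.000134).

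Of 15 further amino acid enzymes with an adjusted p, 1 rose in each line (6.67%) and 5, 5 and 6 fell (33.3%, 33.3% and 40.0%). Several of these act beside Aldh18a1 on proline, ornithine and glutamate. Prodh, which degrades proline, fell, with −2.58, −2.15 and −2.78 at a mean count of 49.0 (adjusted p = 7.41e-13, 1.39e-10 and 4.63e-11). Oat, which joins ornithine to the same intermediate, fell, with −0.60, −0.61 and −0.69 (adjusted p = 3.24e-06, 4.04e-06 and 3.05e-07), as did Odc1, which turns ornithine to putrescine, with −0.89, −0.72 and −1.13 (adjusted p = 4.52e-07, 9.43e-05 and 3.26e-10). Glud1, the glutamate dehydrogenase, fell, with −0.99, −0.82 and −0.99 (adjusted p = 4.41e-22, 1.69e-14 and 2.6e-19).

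NRF2 and glutathione genes gave 1 that rose and 6 that fell of 19 in parental cells (5.26% and 31.6%), 1 and 5 in clone 2 (5.26% and 26.3%), and 2 and 5 in clone 9 (10.5% and 26.3%). There Me1, the malic enzyme that makes NADPH, fell, with −2.04, −1.64 and −1.63 (adjusted p = 4.21e-30, 2.21e-19 and 3.74e-18), as did Gsr, which reduces glutathione, with −1.94, −1.43 and −1.60 (adjusted p = 1.56e-18, 4.4e-10 and 7.98e-12). Thioredoxin, Txn1, fell less, with −0.40, −0.33 and −0.28 (adjusted p = 0.000597, 0.00735 and 0.0299), and Bach1, a repressor of NRF2 targets, rose by 0.71, 0.98 and 0.68 (adjusted p = 0.00275, 9.86e-06 and 0.00459). In the ATF6 and XBP1 arm of the unfolded protein response, 2 rose and 8 fell of 19 in parental cells (10.5% and 42.1%), 2 and 4 in clone 2 (10.5% and 21.1%), and 2 and 3 in clone 9 (10.5% and 15.8%, near the shares of all genes). The chaperone Calr fell, with −1.95, −1.42 and −1.50 (adjusted p = 2.07e-22, 4.66e-12 and 2.45e-13), as did Dnajc3, an inhibitor of eIF2 kinases, with −0.83, −0.51 and −0.78 (adjusted p = 8.75e-05, 0.0288 and 0.000495). The disulfide isomerase Pdia6 fell too, with −0.57, −0.33 and −0.33 (adjusted p = 3.61e-05, 0.0333 and 0.0359), while Atf6, the sensor that gives the arm its name, rose by 0.82, 0.76 and 0.77 (adjusted p = 0.00388, 0.0107 and 0.0105).

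**Figure D4:**
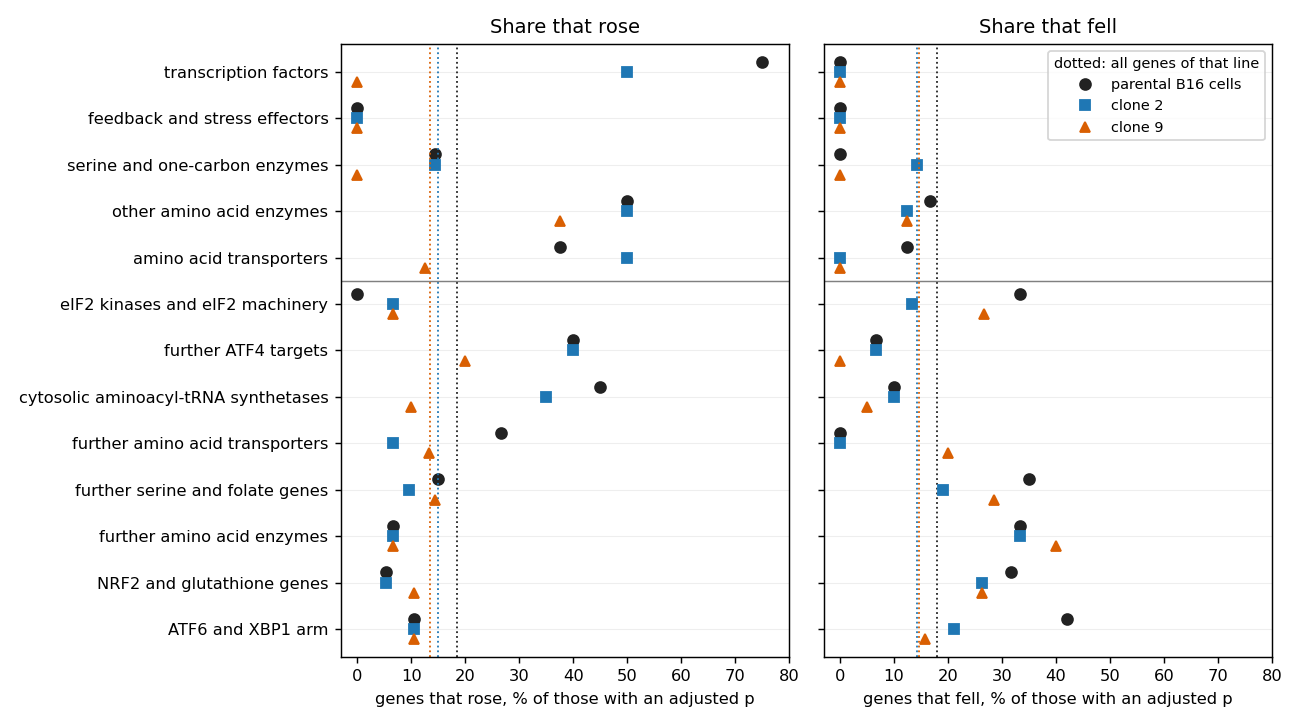
Share of genes with an adjusted p that rose (left) and fell (right) after Tbx2 siRNA, in percent (horizontal axes), for the 5 roles of the group (above the grey line) and 8 lists of neighbouring genes, in parental B16 cells (circles), clone 2 (squares) and clone 9 (triangles), with the share over all genes of each line dotted. In parental cells the transcription factors stand at 75.0% that rose, against 18.5% of all genes, and further serine and folate genes at 35.0% that fell, against 18.0%.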

How the data were processed

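RNA of 27 samples was sequenced from 3′ ends. Per the authors' notes, reads passed FastQC 0.11.7, STAR 2.6.1d placed them on mm10, featureCounts (Subread 1.6.2) gave gene counts, and DESeq2 1.28.1 fitted these. As the signal, the authors deposited 1 mean normalized count per gene, their log2 fold change and its standard error come from that fit, the deposited score is the authors' Wald statistic, and the deposited p-value and adjusted p are also theirs. The adjusted p is missing where the authors' filter on low means removed a gene. These columns compare Tbx2 siRNA with control siRNA in each line. No values per library were used, so nothing was fitted again and depth per sample is unknown. Each table has 23512 entries, of which 92 spike-in transcripts were left out.

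Members and lists were chosen with earlier results of these data known. The text names all 36 members, Tbx2, the melanocyte markers, Cd68 and Col1a1. Of each other neighbouring list it names the genes called the same way in all 3 lines, at most 4, taken by size of change in parental cells. A gene that this rule names is not reported here. To compare lines, the difference of log2 fold changes was divided by the square root of the sum of both squared standard errors (z), with a two-sided normal p adjusted by Benjamini-Hochberg over all genes with an adjusted p in both lines. The test treats lines as independent. Its code was checked on simulated data in which lines were also independent and the planted differences large. This cannot test the assumption, and does not show whether smaller differences between lines would be found. Standard errors were ranked among genes within 2-fold of the mean count. Promoters came from RefSeq (GRCm38.p6) and 3′ UTRs and gene positions from GENCODE on GRCm38, the assembly of mm10, and the siRNA from the study's supplement. Alternatives were an adjusted p of 0.01, adjustment without the filter on low means, a test against an absolute log2 fold change of 0.5, a minimum of 0.5, a floor of 50 on the mean, centring, and rescaling by the slope on parental cells. Python 3.11.15, numpy 2.4.6, pandas 2.3.3, scipy 1.17.1 and matplotlib 3.10.9 were used.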

Additional observations from a re-analysis of the deposited data

How the results depend on the processing

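Apart from centring, the alternatives within a line changed only the adjusted p or the threshold and kept each estimate, so its sign could not change. Centring removed a median of only −0.013, −0.003 and −0.004 in parental cells, clone 2 and clone 9. In parental cells, clone 2 and clone 9 the members that rose numbered 13, 13 and 4 and those that fell 2, 2 and 1. An adjusted p under 0.01 left 5, 5 and 2 that rose (15.6%, 14.7% and 5.88%, against 13.1%, 9.98% and 8.3% of all genes) and 0, 1 and 0 that fell (13.6%, 10% and 10.7% of all genes). Tested against an absolute log2 fold change of 0.5, 3, 2 and 1 rose (9.38%, 5.88% and 2.94%, against 4.08%, 2.38% and 2.11% of all genes) and 0, 0 and 0 fell (4.85%, 2.31% and 3.63% of all genes). A minimum of 0.5 on the absolute log2 fold change left 1 that fell in parental cells and 1 in clone 2. With adjustment over all genes that have a p-value, the falls left were 1 in parental cells and 0 in clone 9, and the calls lost were Jdp2, Psph and Aldh18a1 in parental cells, Aldh1l2 and Slc7a1 in clone 2, and Aldh18a1 in clone 9. With a floor of 50 on the mean count 2 fell in clone 9, where Phgdh joined Aldh18a1, and Cth in parental cells and Slc1a5 in clone 2 passed as well. Got1 in all lines, Gpt2 in parental cells and clone 2, and Slc1a4 in parental cells were called under all 6 alternatives. The other counts of calls stayed within 1.5 times. The medians were taken again only with the floor of 50 and with centring, and moved by less than a typical standard error. The tests between lines called 0 members with the floor of 50 and with rescaling. No paired analysis was possible because the deposited tables used here hold no value per sample, and for the same reason no replicate could be left out in turn. Depth and the part of single libraries in the wide standard errors were not tested.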
